A study of Mus musculus with 8 samples.

Results

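The genes examined were the secreted Wnt ligands, the R-spondins, the Frizzled, Lrp and Lgr receptors, the secreted Wnt antagonists and the Axin scaffolds, as read by Translating Ribosome Affinity Purification (TRAP)-Seq in neurons of the paraventricular nucleus of the thalamus (PVT). They were taken by symbol, as every gene named Wnt, Fzd, Sfrp, Dkk or Rspo with a number, Lgr4 to Lgr6, Axin1, Axin2, Lrp5, Lrp6 and Wif1, which gave 49 of the 18939 genes in the table. The choice of these genes was made with earlier results of these data known. The 49 comprised 19 Wnt ligands, 4 R-spondins, 10 Frizzled receptors, 2 Lrp co-receptors, 3 R-spondin receptors of the Lgr family, 9 secreted antagonists and 2 Axins. All mice were OPRM1cre X EGFP-L10a on a C57Bl/6J background and 8 to 12 weeks old at the start. Cre inserted at the Oprm1 locus removed a stop cassette in front of a ribosomal protein, L10a, tagged with EGFP at Rosa26, so the tag marks cells that express the mu opioid receptor now or did so earlier in development, and antibodies to GFP pull down the ribosomes of these cells. The morphine group was given 0.3 mg/ml morphine in its drinking solution of 0.2% saccharin, increased later to 0.5 mg/ml, for 11 days in all, and the control group drank 0.2% saccharin alone for the same time. There were 4 libraries a group, control replicates 1, 2, 5 and 6 and morphine replicates 3, 4, 7 and 8, of which replicates 1 to 4 were labelled male and 5 to 8 female. Each library pooled gross dissections aimed at the PVT from 2 mice of the same sex, although control replicate 5, labelled female, held counts of Y-linked genes, so its pooling is uncertain.

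Wnt proteins are lipid-modified secreted signals that bind a Frizzled receptor together with Lrp5 or Lrp6. In the canonical branch this binding holds back a destruction complex built on Axin, so that β-catenin accumulates and joins TCF and LEF factors on their target genes. R-spondins, acting through Lgr4, Lgr5 and Lgr6, keep Frizzled and Lrp proteins at the surface, and Sfrp, Dkk and Wif1 proteins block the pathway outside the cell. In the brain, thalamic neurons are known for high levels of the TCF family member Tcf7l2, and Axin2 is a target gene of the pathway as well as a brake on it.

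Total counts lay between 37081348 and 43311793 per control library and between 31151103 and 47582947 per morphine library. The mu opioid receptor gene Oprm1, whose locus drives Cre, stood at 25.3 ± 6.92 counts scaled to the size of the library (CPM) in the control group and 16.5 ± 1.95 CPM in the morphine group (log2 fold change -0.62, SE 0.19, edgeR adjusted P = 0.207). Here and below the error of a level is the SD over the 4 libraries of a group. The 12 thalamic and PVT markers summed to 2943 to 3762 CPM in the control libraries and 2308 to 3704 CPM in the morphine libraries, and all 12 had a log2 fold change below 0 (median -0.31). Among them the PVT markers Drd3, Col12a1 and Gal were low, at 0.493, 2.69 and 5.52 CPM in the control group. Marker levels of other cell types were set beside these. The 12 markers of telencephalic pyramidal neurons summed to 348 to 937 CPM in the control libraries and 971 to 2142 CPM in the morphine libraries (12 of 12 above 0, median log2 fold change 1.30). The 13 choroid plexus markers summed to 43.5 to 161 CPM and 217 to 679 CPM, with 12 of 13 above 0 and a median of 2.02. The 9 hippocampal markers had a median of 0.98 with 8 of 9 above 0 (256 to 357 CPM against 272 to 371 CPM), and 10 oligodendrocyte markers a median of 0.56 (128 to 1298 CPM against 601 to 1582 CPM). These last 2 sums overlapped between the groups, as did those for medial habenula (9 of 10 markers found, 517 to 817 CPM against 305 to 668 CPM), astrocytes (536 to 657 against 472 to 680), ependyma (6 of 8 found, 6.28 to 8.42 against 5.48 to 11.6), microglia (6.95 to 16.3 against 7.86 to 15.7), endothelium and mural cells (5.44 to 15.1 against 6.07 to 9.69) and leptomeninges (6.13 to 42.8 against 9.06 to 22.5). A sum follows its most abundant genes: Nrgn held 363 CPM of the telencephalic sum in the control group, Prox1 143 CPM of the hippocampal sum, Slc1a2 and Aldoc 315 and 242 CPM of the astrocyte sum, and Calb2, which is also in the thalamic list, 519 CPM of the habenular sum. By the mean of log2(CPM + 0.5) over a list, in which every marker weighs the same, the hippocampal list did not overlap between the groups (3.09 to 3.53 against 3.65 to 4.41), nor did the choroid plexus list (0.87 to 2.28 against 2.43 to 3.54), while the telencephalic list overlapped, with control replicate 6 at 4.88 and morphine replicate 3 at 4.53. Tmem212 of the ependymal list and Kcnj8 of the endothelial list were at 0 in at least 1 library. In bulk libraries fewer cells of a type and less RNA per cell cannot be told apart.

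To see which components of the pathway these ribosomes carried, genes were ordered by a per-length level, the CPM divided by the length of the counted transcript in kb. Of the 49 genes, 15 had a mean per-length level above 1 CPM per kb, 24 lay between 0.1 and 1, and 10 were at most 0.1. Axin2 was the most abundant at 14.4 CPM per kb over the 8 libraries, followed by Fzd3 (12.7), Axin1 (8.37), Dkk3 (8.12), Wnt3 (6.08), Lrp6 (4.87), Fzd1 (4.64), Wnt9a (4.52), Lgr4 (3.87) and Rspo1 (3.20). The place of Dkk3 differed between the groups, at 4.82 ± 2.46 CPM per kb in the control group, below Wnt3 and Wnt9a, and 11.4 ± 5.88 CPM per kb in the morphine group, above Axin1, with morphine replicate 8 at 19.9 CPM per kb. In the control libraries the per-length level of Axin2 (14.5 to 17.8 CPM per kb) lay above that of Fzd3 (11.8 to 13.2), whereas in the morphine libraries the ranges overlapped (11.1 to 14.6 and 10.1 to 16.1). Wnt3 and Wnt9a overlapped in the control libraries (5.53 to 6.57 and 4.49 to 5.76 CPM per kb) and did not overlap in the morphine libraries (5.20 to 6.96 and 3.48 to 4.05). The ranges of the neighbours Lrp6, Fzd1 and Wnt9a overlapped in the control libraries, although Lrp6 was below Wnt9a within each of the 4: Lrp6 ranged from 4.06 to 4.67, Fzd1 from 4.30 to 5.49 and Wnt9a from 4.49 to 5.76 CPM per kb.

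**Figure D1:**
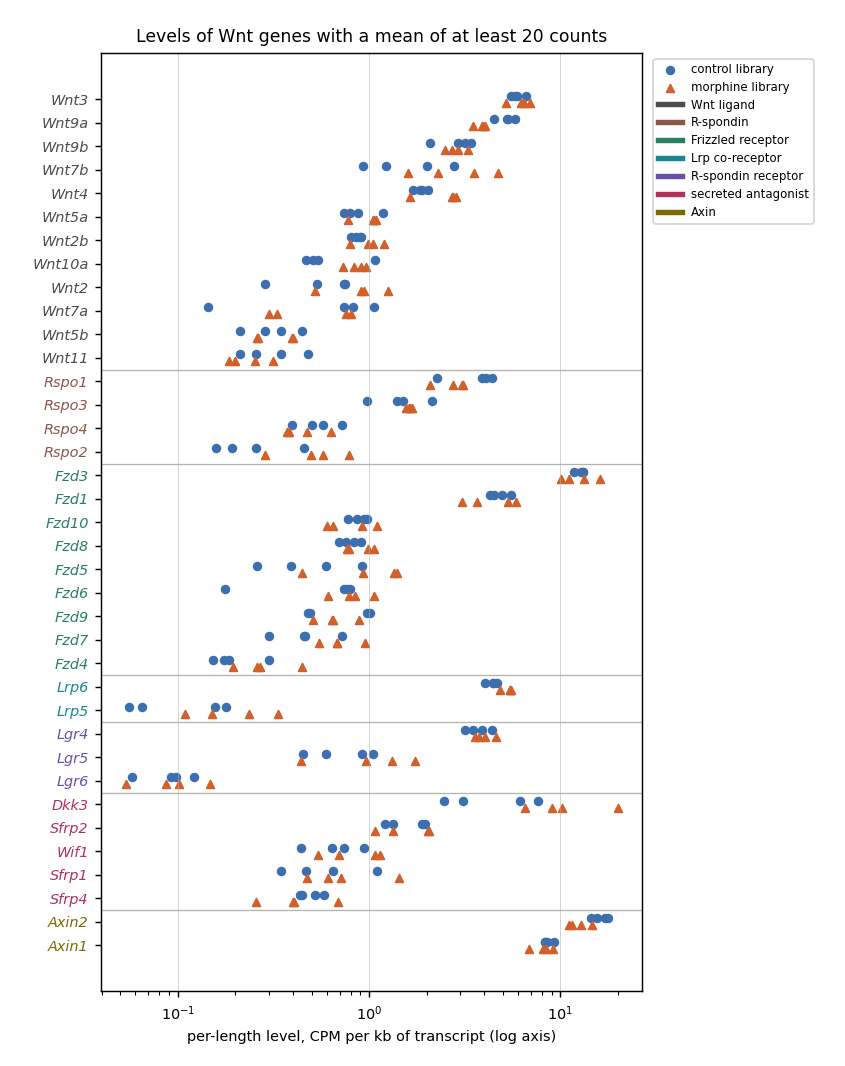
Per-length level (CPM per kb of transcript, log axis) of the 37 genes with a mean of at least 20 counts per library, grouped by role, with 1 point for each of the 4 control (circles) and 4 morphine (triangles) libraries. The points of Axin2, Fzd3 and Axin1 lie far to the right, Dkk3 spreads widely with morphine replicate 8 the furthest right of all (19.9 CPM per kb), the points of both groups are mixed in most rows, and those of Wnt9a and Lrp6 are apart.

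A mean of at least 20 counts per library was reached by 37 of the 49 genes, and the other 12 were close to the limit of these libraries. A count of 3 corresponded to 0.0675 to 0.0814 CPM in the control libraries and 0.0617 to 0.0974 CPM in the morphine libraries, which is counting error only. Wnt1, Wnt3a, Wnt8a and Dkk4 had at most 3 counts in every library, so no fold is given for them. Wnt6 (1 to 6 counts), Wnt8b (0 to 4 counts) and Dkk1 (1 to 11 counts) were just above this. Wnt16 (4 to 26 counts), Fzd2 (3 to 31 counts), Sfrp5 (0 to 28 counts), Dkk2 (11 to 22 counts) and Wnt10b (0 to 10 counts) completed the 12. In the annotation 8 of the 49 genes (Axin2, Fzd5, Fzd6, Rspo3, Sfrp2, Wnt11, Wnt5a and Wnt7b) share exon sequence with a gene on the opposite strand, and since the strand used in counting is not stated, their levels are uncertain to that extent.

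The question asked of the morphine comparison was which of these genes differ after chronic morphine. By edgeR the adjusted P value was under 0.05 for 0 of the 49, beside 37 of 18939 genes, or 0.195% of all genes tested. Before adjustment it was under 0.05 for 8 of the 49 (6 higher and 2 lower in the morphine group), a share of 16.3% beside 12.1% of all genes (1286 higher, 1006 lower). The 8 were Wnt9a, Axin2, Dkk3, Lrp6, Rspo2, Wnt4, Fzd5 and Wnt10b. Each morphine library exceeded each control library in 2 of the 49 genes, Lrp6 and Wnt10b, beside 3.34% of all genes, and the reverse held for Wnt9a alone, beside 3.21% of all genes. DESeq2, run on the same counts, called 1 of the 49 genes, Wnt9a, beside 2.63% of all genes. With limma-voom 0 of the 49 were called, and its number over all genes, below that of edgeR, is given with the other alternatives at the end. In the edgeR fit 32 of the 49 genes, including those at the counting limit, had a log2 fold change above 0 and 17 below. The median was 0.15, beside 0.01 for all genes tested. Among the 37 genes with a mean of at least 20 counts, 7 had an unadjusted edgeR P value under 0.05 (18.9%, beside 14.4% of the 13803 genes with such a mean), and for the other 30 the 95% interval of the log2 fold change included 0. Of these 37 genes, 24 had a log2 fold change above 0 and 13 below, with a median of 0.12 beside 0.00 for all genes with such a mean. The log2 fold changes of all 37 ran from -0.44 to 1.24, with a median SE of 0.27.

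**Figure D2:**
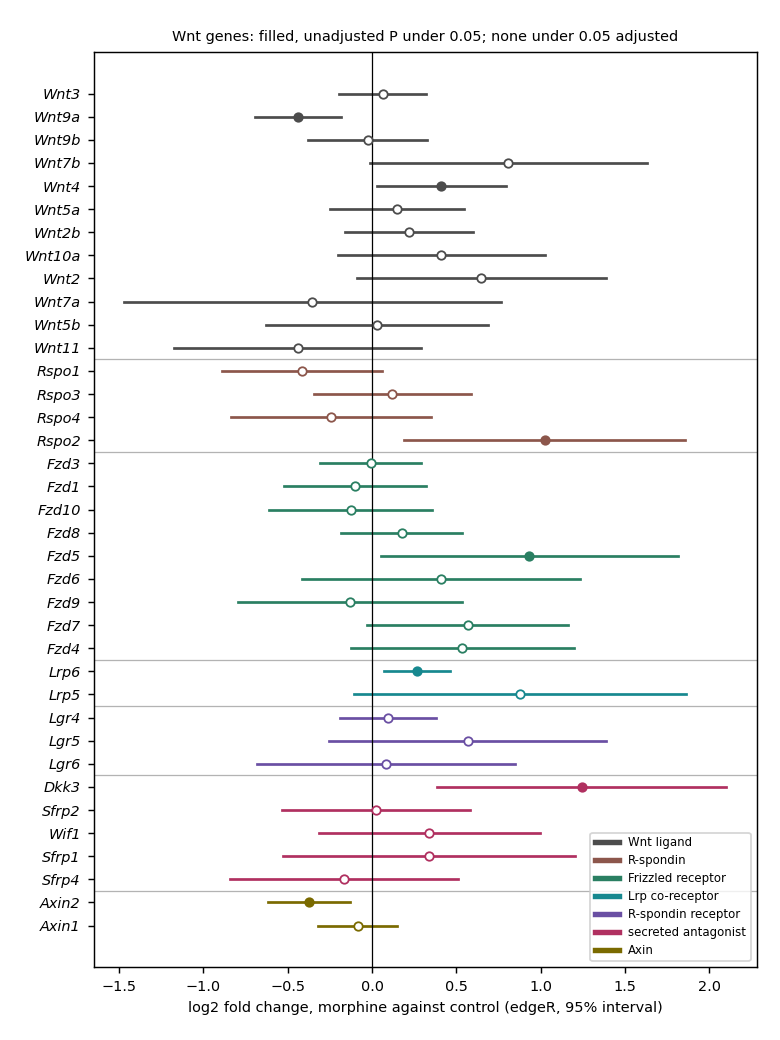
Log2 fold change of the morphine group against the control group (edgeR, points) with its 95% interval (lines) for the 37 genes with a mean of at least 20 counts, grouped by role, with filled points for an unadjusted P value under 0.05. Filled points to the left of 0 are Wnt9a and Axin2, filled points to the right are Wnt4, Rspo2, Fzd5, Lrp6 and Dkk3, and 0 of them passed adjustment.

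Wnt ligands were read mainly from a few genes. Wnt3, Wnt9a and Wnt9b together made up 63.4 ± 4.59% of the summed per-length level of all ligands in the control group and 54.8 ± 5.30% in the morphine group. Wnt3, a canonical ligand, made up 26.8 ± 2.17% and 26.4 ± 3.93%. The summed level itself was 22.3 ± 2.46 CPM per kb in the control group and 23.6 ± 1.61 CPM per kb in the morphine group, with overlapping ranges (19.9 to 25.6 and 22.1 to 25.2).

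**Figure D3:**
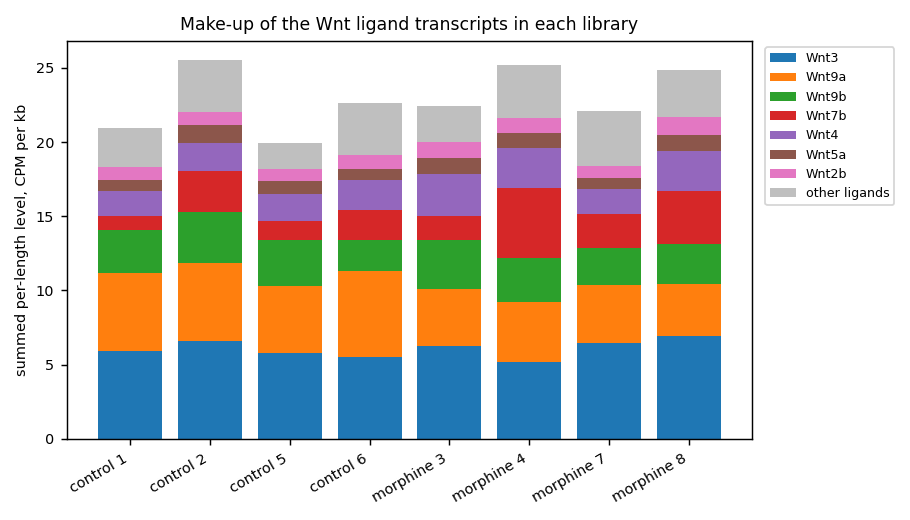
Summed per-length level of the Wnt ligands (CPM per kb, stacked bars from 0) in each of the 8 libraries, divided into the 7 most abundant ligands and the rest. The bars are of similar height in both groups, the Wnt9a segment is smaller in all 4 morphine libraries, and the Wnt7b segment varies most from library to library.

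Promoter sequence is shown for 3 genes: Wnt9a and Axin2, the 2 genes that were lower with an unadjusted P value under 0.05, and Wnt3, the most abundant ligand. Each window runs from 250 bases before to 50 bases after a RefSeq start site on the GRCm38.p6 build, all on the plus strand of chromosome 11: Wnt9a at chr11:59306680-59306979, Axin2 at chr11:108920099-108920398 and Wnt3 at chr11:103773925-103774224. Capitals mark a match to the TCF/LEF core CTTTGNN, in which each N is A or T, on either strand.
Wnt9a: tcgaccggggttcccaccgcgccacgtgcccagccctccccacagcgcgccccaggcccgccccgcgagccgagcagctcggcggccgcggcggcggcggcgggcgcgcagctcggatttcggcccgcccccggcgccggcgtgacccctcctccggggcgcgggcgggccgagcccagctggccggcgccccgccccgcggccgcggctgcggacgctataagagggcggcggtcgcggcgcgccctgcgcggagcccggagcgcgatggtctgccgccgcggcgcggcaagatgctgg
Axin2: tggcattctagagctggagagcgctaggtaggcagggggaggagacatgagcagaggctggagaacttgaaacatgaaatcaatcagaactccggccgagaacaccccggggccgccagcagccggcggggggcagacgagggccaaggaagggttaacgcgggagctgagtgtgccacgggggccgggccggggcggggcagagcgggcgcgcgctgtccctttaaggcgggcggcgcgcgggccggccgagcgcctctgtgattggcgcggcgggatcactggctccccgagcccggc
Wnt3: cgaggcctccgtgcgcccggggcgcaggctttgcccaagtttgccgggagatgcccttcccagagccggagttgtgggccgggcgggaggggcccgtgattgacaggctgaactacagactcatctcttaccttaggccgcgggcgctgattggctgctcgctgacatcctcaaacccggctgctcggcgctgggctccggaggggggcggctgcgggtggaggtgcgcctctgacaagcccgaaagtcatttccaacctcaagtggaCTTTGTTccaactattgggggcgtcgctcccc

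The Wnt3 window held 1 match, CTTTGTT, 18 bases after the start site, and the windows of Wnt9a and Axin2 held 0, which says only that these letters are not in those windows. RefSeq windows matched 31 of the 49 genes, and 5 of the 31, or 16.1%, had a match at some start site: Dkk1, Fzd7, Wnt11, Wnt3 and Wnt5b. Of all 27025 genes with a window, 18.9% had one, and of all 32851 windows, 16.9%. A match is a string of letters and was not tested as a binding site.

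Wnt9a (chr11:59306849-59333552, GRCm38.p6), a ligand best known from skeletal and blood stem cell development, had the lowest unadjusted P value of the 49 genes. Its levels were 17.5, 17.6, 14.9 and 19.1 CPM in control replicates 1, 2, 5 and 6 and 12.9, 13.4, 13.0 and 11.6 CPM in morphine replicates 3, 4, 7 and 8. Every morphine library was below every control library. The means were 17.3 ± 1.75 and 12.7 ± 0.821 CPM, a log2 fold change of -0.44 (SE 0.12, unadjusted P = 0.00275, edgeR adjusted P = 0.156, DESeq2 adjusted P = 0.0169). With any 1 library left out the log2 fold change stayed between -0.52 and -0.39. As a share of all ligands, Wnt9a made up 20.7 to 25.4% in the control libraries and 14.0 to 17.8% in the morphine libraries. Its neighbour Wnt3a, 16097 bases away, was at the counting limit in all 8 libraries. The summed thalamic markers, 2943 to 3762 CPM in the control libraries and 2308 to 3704 CPM in the morphine libraries, overlapped between the groups. By their mean of log2(CPM + 0.5) the control libraries were at 6.30 to 6.62 and morphine replicate 3 at 6.38. Morphine replicates 4, 7 and 8 were lower, at 5.72, 6.13 and 5.97. The part of these markers in the Wnt9a result was not tested.

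Wnt3 and Wnt9b, whose RefSeq spans overlap by 1098 bases on chromosome 11, differed little between the groups. Wnt3 was at 18.2, 20.2, 17.8 and 17.0 CPM in the control libraries and 19.2, 16.0, 19.9 and 21.4 CPM in the morphine libraries, overlapping in full (log2 fold change 0.06, SE 0.12, 95% interval -0.19 to 0.32, edgeR adjusted P = 0.863). Wnt9b, known from kidney and facial development, ranged from 9.45 to 15.5 CPM in the control group and 11.3 to 14.8 CPM in the morphine group, with a log2 fold change of -0.03 and an interval of -0.38 to 0.32.

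Wnt4, a ligand with both canonical and non-canonical actions, was at 7.15, 7.97, 7.72 and 8.50 CPM in the control libraries and 11.9, 11.3, 6.88 and 11.5 CPM in the morphine libraries. Morphine replicate 7 was the lowest of all 8, and the other 3 morphine libraries were above every control library. The log2 fold change was 0.41 (SE 0.17, unadjusted P = 0.0369, edgeR adjusted P = 0.375), and 1 of the 8 fits that left out a library kept the unadjusted P value under 0.05. Wnt7b, a canonical ligand of the brain vasculature and of cortical development, spread more widely, at 2.33, 6.98, 3.08 and 5.08 CPM against 4.05, 11.9, 5.75 and 8.90 CPM (log2 fold change 0.81, SE 0.38, unadjusted P = 0.0535, edgeR adjusted P = 0.425). With 1 library left out the Wnt7b value was 0.51 to 1.13, and 3 of these 8 fits had an unadjusted P value under 0.05. The telencephalic marker sum was likewise lowest in control replicate 1 (348 CPM) and highest in morphine replicate 4 (2142 CPM), but control replicate 2, above 2 of the morphine libraries in Wnt7b, was below all 4 of them in it (612 CPM), and morphine replicate 3 was below control replicate 6 in Wnt7b and above it in the sum. The part of these markers in the Wnt7b values was not tested. Wnt7b shares exon sequence with the opposite-strand gene AU022754.

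Wnt10b, a canonical ligand, passed an unadjusted P value of 0.05 on very few reads. It had 1, 7, 6 and 0 counts in the control libraries and 8, 9, 10 and 8 counts in the morphine libraries, which do not overlap (log2 fold change 1.48, SE 0.66, unadjusted P = 0.0466, edgeR adjusted P = 0.404). At this depth single reads decide the order of the libraries, and 3 of the 8 fits without a library kept the unadjusted P value under 0.05.

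The remaining ligands with a mean of at least 20 counts had intervals that included 0. Wnt5a, the prototype of the non-canonical ligands, was at 6.28 ± 1.38 and 6.96 ± 1.03 CPM in the control and morphine groups, and its close relative Wnt5b at 0.765 ± 0.235 and 0.780 ± 0.187 CPM. Wnt2b was at 2.88 ± 0.157 and 3.34 ± 0.555 CPM, Wnt2 at 1.30 ± 0.488 and 2.04 ± 0.674 CPM, and Wnt10a at 1.60 ± 0.711 and 2.12 ± 0.254 CPM. For Wnt2 the log2 fold change was 0.65 with an interval of -0.09 to 1.38, so a difference of that size was not resolved by 4 libraries a group. With 1 library left out the Wnt2 value was 0.41 to 0.84, and 1 of these 8 fits had an unadjusted edgeR P value under 0.05. Wnt7a was at 2.20 ± 1.24 and 1.73 ± 0.857 CPM, with control replicate 5 lowest at 0.454 CPM, and Wnt11 at 0.580 ± 0.209 and 0.426 ± 0.104 CPM.

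**Figure D4:**
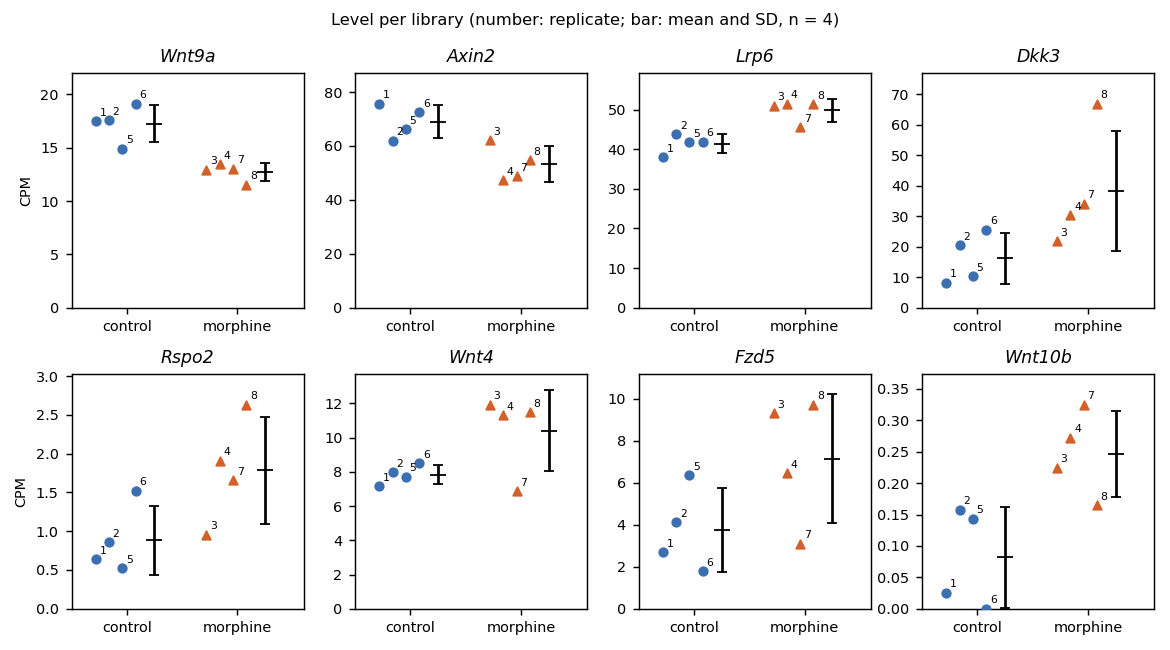
CPM in each library (points, numbered by replicate) with the group mean and SD (bars, 4 libraries a group) for the 8 genes with an unadjusted P value under 0.05, each on its own linear axis from 0. Wnt9a, Lrp6 and Wnt10b show no overlap between the groups, morphine replicate 7 stands below the other morphine libraries in Wnt4 and Lrp6, and morphine replicate 8 stands above the rest in Dkk3.

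R-spondins raise the response of a cell to Wnt. Rspo1 was the main one, at 61.3 ± 3.19% of the summed per-length level of the 4 R-spondins in the control group (58.0 to 65.5%) and 50.8 ± 2.54% in the morphine group (47.1 to 52.5%), shares that did not overlap. Its own level was 7.18, 7.52, 4.16 and 8.01 CPM in the control libraries and 3.79, 5.06, 5.62 and 5.65 CPM in the morphine libraries. Control replicate 5 was the only control library within the morphine range (log2 fold change -0.42, SE 0.22, unadjusted P = 0.0801, edgeR adjusted P = 0.487). Without control replicate 5, whose pooling is uncertain, the log2 fold change of Rspo1 was -0.60 and its unadjusted edgeR P value was under 0.05. Rspo3, the second most abundant, was at 4.63 ± 1.48 and 5.03 ± 0.149 CPM.

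Rspo2 was at 0.641, 0.855, 0.526 and 1.52 CPM in the control libraries and 0.956, 1.91, 1.66 and 2.63 CPM in the morphine libraries. Control replicate 6 and morphine replicate 3 overlapped (log2 fold change 1.02, SE 0.38, unadjusted P = 0.0202, edgeR adjusted P = 0.308). The unadjusted P value stayed under 0.05 in 5 of the 8 fits without a library. Rspo4 was at 1.30 ± 0.329 and 1.10 ± 0.282 CPM. The part of the telencephalic and choroid plexus markers in the Rspo2 values was not tested.

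Among the Frizzled receptors Fzd3, known for its role in the growth of axon tracts, dominated. It made up 58.2 ± 4.06% of the summed per-length level of the 10 receptors in the control group and 56.2 ± 10.2% in the morphine group. Its levels were 167, 150, 163 and 168 CPM in the control libraries and 141, 205, 170 and 128 CPM in the morphine libraries. The morphine libraries lay on both sides of the control range, and the means, 162 ± 8.33 and 161 ± 34.2 CPM, gave a log2 fold change of -0.01 (95% interval -0.31 to 0.29, edgeR adjusted P = 0.987). Fzd1, at 18.9, 23.1, 18.1 and 20.7 CPM against 22.3, 15.3, 12.9 and 24.7 CPM, was similarly scattered in the morphine group (log2 fold change -0.10, SE 0.19, edgeR adjusted P = 0.866).

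Fzd5, a receptor of canonical Wnt signals, was at 2.69, 4.12, 6.36 and 1.79 CPM in the control libraries and 9.30, 6.45, 3.08 and 9.70 CPM in the morphine libraries. Morphine replicates 3, 4 and 8 were above all control libraries and morphine replicate 7 within their range. The log2 fold change was 0.93 (SE 0.40, unadjusted P = 0.0400, edgeR adjusted P = 0.381), and the unadjusted P value stayed under 0.05 in 2 of 8 fits without a library. Fzd5 overlaps an exon of the opposite-strand gene Gm38058. Fzd7 was at 2.20 ± 0.799 and 3.24 ± 0.770 CPM (log2 fold change 0.57, unadjusted P = 0.0599, edgeR adjusted P = 0.446), and its unadjusted P value was under 0.05 in 2 of 8 fits without a library. The intervals of Fzd4, Fzd6, Fzd8, Fzd9 and Fzd10 all included 0. Of these, Fzd8 was at 4.77 ± 0.546 and 5.38 ± 0.874 CPM and Fzd10 at 2.89 ± 0.294 and 2.65 ± 0.767 CPM. Fzd6 was at 3.20 to 3.42 CPM in control replicates 1, 2 and 5 and 0.760 CPM in control replicate 6, against 2.63 to 4.58 CPM in the morphine libraries.

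Lrp6, the co-receptor that binds Wnt and Axin on the 2 sides of the membrane, had the smallest SE of the genes with an unadjusted P value under 0.05. It was at 38.0, 43.8, 41.8 and 41.8 CPM in the control libraries and 51.0, 51.4, 45.5 and 51.4 CPM in the morphine libraries. The groups did not overlap, with morphine replicate 7 closest to the controls. The means were 41.4 ± 2.42 and 49.8 ± 2.88 CPM, a log2 fold change of 0.27 (SE 0.09, 95% interval 0.07 to 0.46, unadjusted P = 0.0115, edgeR adjusted P = 0.256). Across fits without 1 library it was 0.22 to 0.30, and 7 of 8 kept the unadjusted P value under 0.05, the exception being the fit without control replicate 1. The related Lrp5 was far lower, at 0.333, 0.810, 0.287 and 0.923 CPM against 0.562, 1.21, 0.779 and 1.73 CPM, with overlapping groups (log2 fold change 0.87, SE 0.45, unadjusted P = 0.0763, edgeR adjusted P = 0.478). The Lrp5 value was 0.53 without morphine replicate 8, and its unadjusted edgeR P value was under 0.05 without control replicate 6 or without morphine replicate 3. On the per-length scale Lrp6 stood at 4.41 ± 0.258 CPM per kb in the control group and Lrp5 at 0.114 ± 0.0630 CPM per kb.

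Of the R-spondin receptors, Lgr4 made up 82.0 ± 3.00% of the summed per-length level in the control group and 77.7 ± 7.84% in the morphine group. It was at 17.8, 22.2, 19.7 and 16.1 CPM in the control libraries and 23.4, 19.0, 18.1 and 20.5 CPM in the morphine libraries, which overlap (log2 fold change 0.09, SE 0.13, edgeR adjusted P = 0.804). Lgr5, best known as a marker of intestinal stem cells, was at 3.55 ± 1.31 and 5.25 ± 2.59 CPM, from 2.12 CPM in control replicate 6 and 2.08 CPM in morphine replicate 7 to 8.18 CPM in morphine replicate 8. Lgr6 was at 0.615 ± 0.177 and 0.649 ± 0.260 CPM.

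Among the secreted antagonists Dkk3, a divergent Dickkopf protein whose effect on Wnt signalling is weaker than that of its relatives, was the most abundant. It was at 8.26, 20.6, 10.4 and 25.6 CPM in the control libraries and 21.9, 30.4, 34.1 and 66.9 CPM in the morphine libraries. Control replicate 6 was above morphine replicate 3, and morphine replicate 8 was far above the rest. The means of 16.2 ± 8.26 and 38.3 ± 19.7 CPM gave a log2 fold change of 1.24 (SE 0.39, unadjusted P = 0.00836, edgeR adjusted P = 0.230). Without morphine replicate 8 it was 0.83 (SE 0.34, edgeR unadjusted P = 0.0313, adjusted P = 0.510). Across fits without 1 library it was 0.83 to 1.53, with an unadjusted P value under 0.05 in 8 of 8 fits. Dkk3 made up 54.2 ± 9.72% of the summed per-length level of the antagonists in the control group and 72.6 ± 8.97% in the morphine group.

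The order of the libraries in Dkk3 can be set beside that of the 4 marker lists with the highest median log2 fold change. The telencephalic sum was lowest in control replicates 1 and 5 (348 and 553 CPM), as was Dkk3, but highest in morphine replicate 4 (2142 CPM) and not in morphine replicate 8 (1620 CPM). The choroid plexus sum was lowest in control replicate 1 (43.5 CPM) and highest in morphine replicate 8 (679 CPM), as was Dkk3, but morphine replicate 7, second in Dkk3, had the lowest choroid plexus sum of the morphine libraries (217 CPM). The hippocampal list, by its mean of log2(CPM + 0.5), was also lowest in control replicate 1 (3.09) and highest in morphine replicate 8 (4.41). Its order was that of Dkk3 except that control replicates 2 (3.17) and 5 (3.18) changed places, as did control replicate 6 (3.53) and morphine replicate 3 (3.65). By the same mean the choroid plexus list had morphine replicate 7 (2.44) just above morphine replicate 3 (2.43) and below morphine replicate 4 (3.05). The oligodendrocyte sum was likewise lowest in control replicate 1 (128 CPM) and highest in morphine replicate 8 (1582 CPM), but control replicate 5, second lowest in Dkk3, was second highest in it (1298 CPM). The part of these 4 lists in the Dkk3 result was not tested.

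The other antagonists did not separate the groups. Sfrp2, a Wnt-binding protein with a Frizzled-like domain, was at 3.21 ± 0.776 and 3.25 ± 0.995 CPM (log2 fold change 0.02, interval -0.53 to 0.58). Sfrp1 was at 2.80 ± 1.44 and 3.53 ± 1.86 CPM, Sfrp4 at 0.875 ± 0.122 and 0.771 ± 0.318 CPM, and Wif1, which also binds Wnt directly, at 1.58 ± 0.475 and 1.98 ± 0.668 CPM. Sfrp1 was highest in morphine replicate 8 at 6.25 CPM. The classical Lrp-binding antagonists Dkk1 and Dkk2 were at 0.0908 ± 0.0503 and 0.435 ± 0.0983 CPM in the control group and 0.130 ± 0.0812 and 0.389 ± 0.0634 CPM in the morphine group, with log2 fold changes of 0.55 (interval -0.78 to 1.88) and -0.17 (interval -0.83 to 0.49).

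Axin2, a scaffold of the destruction complex that is itself a target of the pathway, was at 75.6, 61.9, 66.2 and 72.5 CPM in the control libraries and 62.1, 47.3, 48.9 and 54.8 CPM in the morphine libraries. Morphine replicate 3 was just above control replicate 2, the single overlap. The means were 69.1 ± 6.18 and 53.3 ± 6.70 CPM, a log2 fold change of -0.37 (SE 0.11, 95% interval -0.62 to -0.13, unadjusted P = 0.00575, edgeR adjusted P = 0.202). Without any 1 library it stayed between -0.46 and -0.32 with an unadjusted P value under 0.05 in 8 of 8 fits. Axin2 overlaps an exon of the opposite-strand gene Gm11670, so reads of the 2 cannot be told apart without strand. Axin1, the constitutive paralog, was at 31.5, 32.1, 31.4 and 35.2 CPM against 25.9, 30.5, 34.5 and 31.7 CPM, with overlapping groups (log2 fold change -0.09, SE 0.11, 95% interval -0.32 to 0.15, edgeR adjusted P = 0.773).

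The libraries did not contribute evenly to these values. Over the 37 genes with a mean of at least 20 counts, morphine replicate 8 held the highest CPM of 14 genes, control replicate 2 and morphine replicate 3 of 6 each, control replicate 6 of 5, and control replicate 5 of 0. The lowest CPM fell most often in control replicate 5, for 9 genes, and for 0 genes in control replicate 2.

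**Figure D5:**
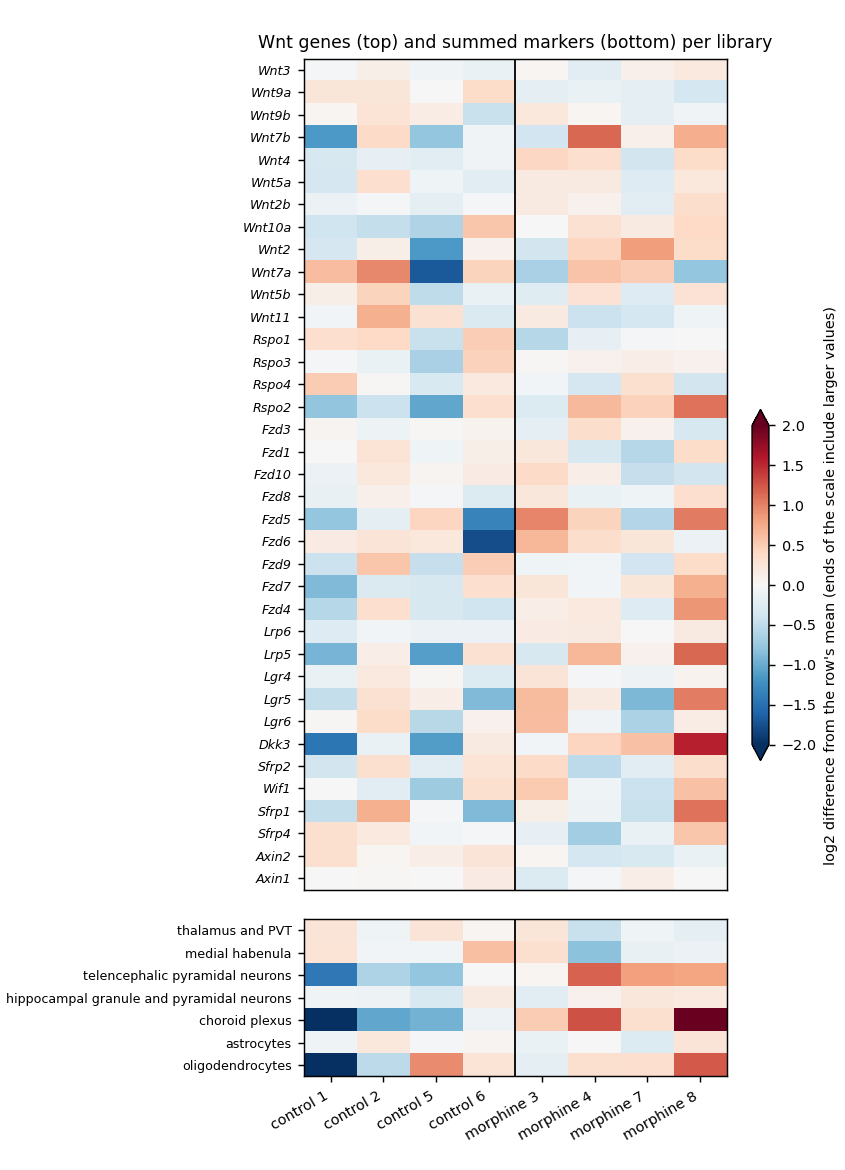
Log2 difference of each library from the mean of its row (colour scale, red higher and blue lower) for the 37 genes with a mean of at least 20 counts (top) and for the summed CPM of 7 marker lists (bottom), with control libraries left of the line and morphine libraries right of it. The telencephalic and choroid plexus rows are mostly blue left of the line and red right of it, and among the genes the deepest red of Dkk3, Lrp5 and Rspo2 is in morphine replicate 8.

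Female and male libraries were compared with treatment as a term in the model. Between female and male libraries 0 of the 49 genes were called by edgeR, beside 0.00528% of all genes (1 gene), and the unadjusted P value was under 0.05 for 2, beside 3.1% of all genes. These were Fzd7, with a female against male log2 fold change of 0.52 (SE 0.23, unadjusted P = 0.0453, edgeR adjusted P = 1), and Wnt16, at 4 to 26 counts per library, with 1.14 (SE 0.47, unadjusted P = 0.0333, edgeR adjusted P = 1). Without control replicate 5, whose label is doubted, and with DESeq2, again 0 of the 49 were called, but the share of all genes is not given for these fits. With only 1 gene called over all genes by edgeR, 0 of 49 says little about these genes in particular. For the interaction of sex and morphine, with 2 libraries for each sex and treatment, edgeR called 0 of the 49 genes and 0 of all 18939 genes. The unadjusted P value was under 0.05 for 0 of the 49, beside 1.72% of all genes. The interaction was not fitted without control replicate 5, a control library labelled female whose label is doubted. These counts therefore do not show that an interaction is absent.

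To place these genes in their pathway, 65 other Wnt pathway genes were read from the same fit. By edgeR 0 of 65 passed the adjusted threshold, and the unadjusted P value was under 0.05 for 13 (20%, beside 12.1% of all genes and 14.4% of those with a mean of at least 20 counts, which 63 of the 65 reached), 7 higher and 6 lower in the morphine group. The groups did not overlap for 7 of them (10.8%, beside 6.54% of all genes), 3 higher and 4 lower, beside 3.34% and 3.21% of all genes. Over the 65 genes the log2 fold changes had a median of 0.00. DESeq2 called 4 of the 65, Frzb, Tle3, Nkd1 and Tnfrsf19, beside 2.63% of all genes.

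The secretion genes were present and did not separate the groups. Porcn, the enzyme that attaches the lipid to Wnt, was at 10.3 ± 3.31 and 13.4 ± 4.19 CPM (log2 fold change 0.38, SE 0.25, edgeR adjusted P = 0.599, range 0.21 without morphine replicate 8 to 0.62 without control replicate 2, where the unadjusted P value was under 0.05), and Wls, which carries Wnt to the surface, at 14.0 ± 1.99 and 15.4 ± 4.54 CPM (log2 fold change 0.14, SE 0.20, edgeR adjusted P = 0.805). Among other secreted regulators, Frzb, a secreted Frizzled-related antagonist outside the Sfrp names, had the lowest P value of the 65. It was at 0.769, 1.80, 1.17 and 0.842 CPM in the control libraries and 2.56, 4.00, 1.98 and 3.70 CPM in the morphine libraries, which do not overlap (log2 fold change 1.41, SE 0.32, unadjusted P = 0.000897, edgeR adjusted P = 0.101, DESeq2 adjusted P = 0.00222). Apcdd1, a membrane-bound Wnt inhibitor, was at 1.60 ± 0.739 and 3.08 ± 1.03 CPM (log2 fold change 0.95, edgeR adjusted P = 0.288). Sostdc1, a secreted antagonist that also stands in the choroid plexus list, was at 2.00 ± 0.459 and 3.42 ± 1.37 CPM (log2 fold change 0.78, edgeR adjusted P = 0.310, and 0.50 without morphine replicate 8), and the part of choroid plexus RNA in it was not tested.

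By role, 15 of 17 genes of cytoplasmic transduction, 6 of 12 nuclear factors and 4 of 9 genes of the planar polarity branch had a log2 fold change below 0, as did 9204 of all 18939 genes. The median of the 17 was -0.11, and the unadjusted P value was under 0.05 for 3 of them (17.6%, beside 12.1% of all genes). Nkd1, an inhibitor that binds Dishevelled and is a target of the pathway, was at 54.0, 38.7, 46.8 and 59.5 CPM in the control libraries and 38.5, 27.1, 38.2 and 32.3 CPM in the morphine libraries. Every morphine library was below every control library, if only just for morphine replicate 3 (log2 fold change -0.55, SE 0.15, unadjusted P = 0.00394, edgeR adjusted P = 0.177, DESeq2 adjusted P = 0.0435). Apc2, a member of the destruction complex, was at 180 ± 15.1 and 145 ± 17.1 CPM without overlap (log2 fold change -0.31, SE 0.11, edgeR adjusted P = 0.284). Ctnnb1, which encodes β-catenin, was at 665, 516, 683 and 654 CPM against 539, 515, 589 and 452 CPM (log2 fold change -0.27, SE 0.12, edgeR adjusted P = 0.411). Control replicate 2 lay within the morphine range and the other 3 control libraries above it.

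Among the nuclear factors Tcf7l2 was the most abundant and spread widely in both groups, at 1101 ± 202 and 947 ± 291 CPM (log2 fold change -0.22, SE 0.20, edgeR adjusted P = 0.677). Its log2 fold change was -0.44 without morphine replicate 3, where the unadjusted P value was under 0.05, and -0.09 without morphine replicate 4. It is also a thalamic marker. Lef1, the other TCF/LEF factor at high level here, was at 89.3 ± 20.8 and 73.0 ± 5.04 CPM (log2 fold change -0.29, SE 0.15, edgeR adjusted P = 0.469). With 1 library left out the Lef1 value was -0.40 to -0.16, the latter without control replicate 5. The unadjusted P value was under 0.05 in 2 of these 8 fits. Tle3, a co-repressor that binds TCF factors, was at 62.1, 52.2, 70.1 and 72.3 CPM in the control libraries and 41.8, 46.4, 48.6 and 51.8 CPM in the morphine libraries, which do not overlap (log2 fold change -0.44, SE 0.12, unadjusted P = 0.00297, edgeR adjusted P = 0.160, DESeq2 adjusted P = 0.0409). Bcl9, a co-activator of β-catenin, was at 115 ± 7.80 and 93.1 ± 14.3 CPM without overlap (log2 fold change -0.31, edgeR adjusted P = 0.323, and -0.20 without morphine replicate 3). Tcf7l1, a TCF factor that mostly represses, was low at 0.417 ± 0.143 and 0.985 ± 0.530 CPM, where the nearest libraries were at 0.608 and 0.618 CPM (27 and 22 counts), so the groups only just failed to overlap (log2 fold change 1.21, SE 0.40, edgeR adjusted P = 0.248). Without morphine replicate 4 it was 0.78.

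Of 4 further genes used as readouts of the pathway, 3 had a log2 fold change above 0 and 1 below. Besides Axin2 and Nkd1, which were lower by value in the morphine group, Tnfrsf19 was at 3.77, 6.37, 3.90 and 5.89 CPM in the control libraries and 6.49, 8.42, 7.86 and 11.6 CPM in the morphine libraries, which do not overlap (log2 fold change 0.79, SE 0.23, unadjusted P = 0.00489, edgeR adjusted P = 0.188, DESeq2 adjusted P = 0.0356). Ccnd1, the cyclin that drives entry into the cell cycle, was at 18.8 ± 2.29 and 24.3 ± 5.06 CPM (log2 fold change 0.37, SE 0.15, edgeR adjusted P = 0.346), and the log2 fold change was 0.22 without morphine replicate 4. The other 2, named here to complete the 4, were Myc, a growth regulator, at 3.04 and 3.43 CPM (log2 fold change 0.18) and Sp5, a transcription factor, at 0.384 and 0.200 CPM (log2 fold change -0.85), with an unadjusted edgeR P value above 0.05 for both. Telencephalic and choroid plexus markers were higher by value in the morphine group and thalamic markers lower, and the part of these markers in the pathway values was not tested.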

How the data were processed

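TRAP-Seq libraries (50-base paired ends, a directional kit per the labels) were grouped by GEO's labels. The authors deposited whole-number counts per RefSeq transcript, not normalized; the submitters' notes name mm10 and DESeq2. The study describes Salmon and tximport, but the tool and strand setting behind this table are not given in the sources used here. Where a gene had several transcripts, the one with the most counts stood for it. A total of 0 columns lacked a sample and 0 rows a gene name. PCR copies are not marked, so limits from counts cover counting error only. The design was unpaired, and P values measure the spread between pools of mice.

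Counts were tested over all 18939 genes with edgeR 4.0.16 in R 4.3.3 (TMM factors, quasi-likelihood test, treatment in the model, Benjamini-Hochberg adjustment, threshold 0.05), after tests on simulated data. CPM used TMM-scaled library sizes. Per-length levels used GENCODE vM21 transcript lengths, matched by accession for 49 of 49 genes. Gene coordinates and promoters are from RefSeq (GRCm38.p6). Exon overlaps with opposite-strand genes (8 of 49) came from GENCODE.

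Values in full are given for genes with an adjusted or unadjusted P value under 0.05, genes whose groups did not overlap (mean of at least 20 counts), the 10 highest per-length levels, Axin2, Lrp5 and Lrp6, and, of 65 further pathway genes, at most 10 by P value plus Ctnnb1, Tcf7l2, Lef1, Porcn and Wls. The genes and lists, including 11 marker lists, were chosen with earlier results of these data known. Alternatives were DESeq2 1.42.0, limma-voom (limma 3.58.1), a model with sex, transcripts summed per gene, other scaling factors (upper-quartile, RLE), robust empirical Bayes, a minimum of 10 counts in each library, filterByExpr and leaving out each library. Figures were drawn with matplotlib 3.10.9.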

Additional observations from a re-analysis of the deposited data

Results flagged for a closer look

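Of 60 groups of 4 libraries examined for a library far from the others (the gap to its neighbour over the range of the group), 4 were marked, where chance alone marks about 1 in 20. Lrp6 stood at 45.5 CPM in morphine replicate 7, while the other morphine libraries lay between 51.0 and 51.4 CPM. Wnt4 stood at 6.88 CPM in the same library, below 11.3 to 11.9 CPM in the others. Apcdd1 stood at 4.62 CPM in morphine replicate 8, above 2.45 to 2.64 CPM, and Ctnnb1 at 516 CPM in control replicate 2, below 654 to 683 CPM. The causes were not tested.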

How the results depend on the processing

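The number of all genes called by edgeR, 37, depended on the processing: it was 498 with DESeq2, 14 with filterByExpr, 15 with at least 10 counts in every library, 23 with limma-voom, 110 with sex in the model and 22 with the sum over transcripts, and 0 to 77 with 1 library left out (0 without morphine replicate 4 or 8, 1 without control replicate 1). The number of Wnt ligand, receptor and antagonist genes called was 1 with DESeq2 (Wnt9a) and 0 under every other alternative run. Of the other pathway genes DESeq2 called 4. The count of Wnt genes with an unadjusted P value under 0.05, 8 by edgeR, was 6 to 9 under the other settings and 3 to 10 with 1 library left out (3 without control replicate 1, 5 without morphine replicate 8), and that of the other pathway genes, 13, was 7 to 19 with 1 library left out (7 without control replicate 1). Of 508 recomputed log2 fold changes of 30 named genes, 499 kept their direction and side of the threshold, 5 passed it and 4 changed sign, all near 0: Fzd1 was -0.26 to 0.024 with 1 library left out (above 0 without morphine replicate 7), Fzd3 -0.15 to 0.088 (above 0 without morphine replicate 3 or 8) and Wls -0.024 to 0.26 (below 0 without morphine replicate 8). Fewer genes or samples went into the fits with filters or left-out libraries, and the cause of the other differences was not tested. Depth limits the 12 genes under a mean of 20 counts. No paired analysis was possible because the groups share no replicate numbers.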
